A study of Homo sapiens with 32 samples.

Results

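The 10 genes described here encode the core of prostaglandin metabolism and response: the cyclooxygenases PTGS1 and PTGS2, the prostaglandin E synthases PTGES, PTGES2 and PTGES3, the receptors PTGER2, PTGER4 and PTGFR, the arachidonate-releasing phospholipase PLA2G4A and the prostaglandin-degrading enzyme HPGD. They were chosen by symbol among the 19815 protein-coding genes of 60554 genes in the count tables, and each symbol matched 1 row in both tables. The study sequenced mRNA of MCF10A, an immortalised non-tumour breast epithelial line, and of MDA-MB-231, a triple-negative breast carcinoma line, and asked how hypoxia and inhibition of the kinase mTOR alter the mRNAs present and the mRNAs being translated. Each line was kept in normoxia (N), in normoxia with PP242 (NPP), in hypoxia (H) or in hypoxia with PP242 (HPP), and total mRNA (T) and mRNA sedimenting with polysomes on a sucrose gradient (P) were sequenced, with 2 biological replicates for each of the 16 groups and 32 libraries in all. Hypoxia was 0.5% O2 for 24 h, and PP242, which blocks the catalytic site of mTOR in both of its complexes, was applied at 2.5 µM for 3 h from a DMSO stock, with the vehicle alone given to control cells per the study's methods. Both lines grew in DMEM with FBS. The MCF10A medium also held EGF, hydrocortisone, insulin and cholera toxin. Cholera toxin raises cellular cAMP and hydrocortisone is a glucocorticoid, and both were present in every MCF10A group and absent from the MDA-MB-231 medium. The lines were deposited in separate tables with separate barcodes, so that line, medium and sequencing set cannot be told apart.

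Prostaglandins are lipid signals made from arachidonic acid. A phospholipase releases the acid from membranes, a cyclooxygenase turns it into the unstable endoperoxide prostaglandin H, and a terminal synthase shapes that into prostaglandin E or another prostanoid. Prostaglandin E acts on surface receptors of the EP family, of which the products of PTGER2 and PTGER4 raise cAMP, while the PTGFR product binds prostaglandin F and signals through calcium. HPGD oxidises prostaglandins to inactive forms. PTGS1 is usually described as the constitutive cyclooxygenase and PTGS2 as the inducible one, and PTGS2 mRNA is short-lived because proteins bind AU-rich elements in it. PTGS2 is widely studied in breast tumours.

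Deposited gene totals were 30302497 to 46032327 estimated counts per MCF10A library and 18340916 to 39536845 per MDA-MB-231 library. Levels below are counts divided by TMM-scaled library sizes (CPM), given for replicates 1 and 2 in that order; a log2FC is a log2 ratio of group levels with its standard error, and a gene was called when its edgeR quasi-likelihood p, adjusted by Benjamini-Hochberg over all genes tested, was under 0.05. All 10 genes passed the filter on low counts in both lines. CA9, a standard hypoxia-induced gene, checked the labels: it was at 7.72 to 26.9 CPM in the N and NPP libraries of MCF10A and at 522 to 1356 CPM in the H and HPP libraries, and at 0.0568 to 1.02 against 13 to 34.6 CPM in MDA-MB-231. Line markers were mixed. MCF10A libraries held the basal keratins KRT5 (1190 to 3270 CPM) and KRT14 (458 to 4200 CPM), yet CDH1, the epithelial cadherin, was at 0 to 0.361 CPM and TP63, a basal regulator, at 0 to 0.226 CPM, which goes against the epithelial label. MDA-MB-231 libraries had VIM at 3110 to 6080 CPM, CDH1 at 0.0585 to 0.568 CPM and KRT5 at 0 to 5 counts. VIM did not set the lines apart, as MCF10A libraries held it at 1690 to 9370 CPM. Other mesenchymal markers went both ways. FN1 (1060 to 8620 against 77 to 283 CPM) and CAV1 (2020 to 3300 against 375 to 697 CPM) were higher in MCF10A. SPARC was too (91.7 to 203 against 0.0871 to 0.796 CPM). ZEB1 (4.69 to 32.6 against 43.6 to 88.2 CPM) and AXL (225 to 401 against 700 to 1050 CPM) were lower there.

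The MCF10A libraries agreed less well than those of MDA-MB-231. Replicate pairs correlated at 0.983 to 0.994 across 11951 genes in MDA-MB-231 and at 0.873 to 0.993 across 11533 genes in MCF10A, where the lowest value belonged to NPP T. In MCF10A the nearest library was the replicate for 8 of 16 libraries, and was another group's for both replicates of NPP T, HPP T, N P and H P; in MDA-MB-231 it was the replicate for 12 of 16. The second NPP T library of MCF10A was nearest to the second HPP T library (r = 0.946), and as its pair had the lowest correlation, the calls that change when it is left out of the fit are given below. Summed markers also differed between treatments in both lines. In MCF10A the basal list, with 7 of 7 markers detected, summed to 2060 to 3300 CPM in N and 6490 to 12000 CPM in HPP. The mesenchymal list, with 6 of 6 detected, summed to 6620 to 7200 against 13300 to 17900 CPM. A marker was detected if any library reached 10 counts. CDH1 (at most 16 counts in MCF10A) and TP63 (at most 10) barely did. Nearly all of the basal sum thus came from KRT5, KRT14, KRT17, LAMB3 and SFN. In MDA-MB-231 the basal list summed to 353 to 459 CPM in N and 598 to 726 CPM in HPP. The mesenchymal list summed there to 4550 to 5460 against 5860 to 8020 CPM. Among markers of other cell types in MCF10A, the leukocyte list summed to 38.8 and 42.7 CPM in N T, 92.9 and 146 CPM in HPP T, and 37.5 to 146 CPM over all groups, with CD68 the most abundant, CD3E at 0 and PTPRC at 3 counts or fewer. The endothelial markers summed to 0.105 to 1.88 CPM with CDH5 at 2 counts or fewer, and the fibroblast markers to 69.2 to 257 CPM, nearly all of it DCN (64.1 to 238 CPM), with COL3A1 at 4 counts or fewer. The last 3 lists summed in MDA-MB-231 to 74.2 to 124 CPM for leukocytes, 0.646 to 2.43 CPM for endothelium and 8.59 to 16.8 CPM for fibroblasts. The part of these marker shifts in the results was not tested. In these bulk libraries, fewer cells expressing a gene and less of its RNA per cell cannot be told apart.

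PTGS2 (ENSG00000073756.11, chr1:186671791-186680922, minus strand, GRCh38) and PTGS1 (chr9:122370530-122395703, plus strand) catalyse the same reaction from different genes. Their promoters are shown because the data below turn on these 2 genes, PTGS1 for its response in MCF10A and PTGS2 for its level in the lines. The 250 bases before each RefSeq start (GRCh38.p14) are printed 5′ to 3′ on the strand of the gene; PTGS1 has 2 such starts. Capitals mark matches on either strand to 5 motifs, none of which overlap here: ACGTG and GCGTG, forms of the hypoxia response element core; TGACG, the core of a cAMP response element; TATAAA, the TATA box; and TTACGCAA, a C/EBP site.
PTGS2, chr1:186680424-186680673: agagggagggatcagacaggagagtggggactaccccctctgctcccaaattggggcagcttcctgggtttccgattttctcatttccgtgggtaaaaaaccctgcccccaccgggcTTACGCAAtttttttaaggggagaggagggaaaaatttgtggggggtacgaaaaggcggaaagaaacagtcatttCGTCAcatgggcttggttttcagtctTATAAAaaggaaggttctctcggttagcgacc
PTGS1, chr9:122370283-122370532: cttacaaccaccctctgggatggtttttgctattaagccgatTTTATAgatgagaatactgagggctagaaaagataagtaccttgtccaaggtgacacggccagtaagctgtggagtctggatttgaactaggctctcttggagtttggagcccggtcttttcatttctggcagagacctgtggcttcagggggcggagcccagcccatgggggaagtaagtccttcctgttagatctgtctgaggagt
PTGS1, chr9:122375052-122375301: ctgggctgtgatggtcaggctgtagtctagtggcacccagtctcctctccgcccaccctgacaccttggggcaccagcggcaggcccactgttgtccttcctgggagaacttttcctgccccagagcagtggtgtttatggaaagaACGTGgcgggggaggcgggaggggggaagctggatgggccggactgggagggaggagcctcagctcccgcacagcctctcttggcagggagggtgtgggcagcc
The PTGS2 window held TATAAA 32 bases, TGACG (on the opposite strand, read as CGTCA) 58 bases and TTACGCAA 133 bases before the start, and neither hypoxia core. The upstream PTGS1 window held TATAAA on the opposite strand 208 bases before the start, and the downstream window held ACGTG. A hypoxia core also lay in a window of PTGES, PTGES2, PTGES3, PTGER2, PTGER4 and HPGD, whose promoters are not printed. Sites further than 250 bases before a start were not searched. Whether any match bears on a response was not tested. Among 35116 RefSeq promoters of the same length, 18.5% held ACGTG, 32.2% GCGTG, 21.2% TGACG, 10.7% TATAAA and 0.148% TTACGCAA. The motifs were picked because they are described for PTGS2, and a match of letters is not evidence of binding.

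PTGS1 showed the largest called change of the 10 genes against N, in MCF10A under hypoxia. In MCF10A T it was at 2.25 and 2.66 CPM in N, 1.86 and 3.01 in NPP, 13.7 and 22.3 in H, and 16 and 27.3 in HPP. In MCF10A P the values were 2.97 and 3.11 in N, 2.71 and 3.07 in NPP, 13.1 and 25.1 in H, and 17.1 and 33.4 in HPP. Every hypoxic library thus lay above every normoxic one, whether or not PP242 was present, and the second replicate was the higher in each hypoxic pair. PTGS1 rose in H by 7.33-fold in T (log2FC 2.87 ± 0.46, edgeR adjusted p = 0.00843) and 6.30-fold in P (2.66 ± 0.46, edgeR adjusted p = 0.0131), and in HPP by 8.80-fold in T (3.14 ± 0.47, edgeR adjusted p = 0.00137) and 8.32-fold in P (3.06 ± 0.46, edgeR adjusted p = 0.00126). It was the only one of the 10 genes called by edgeR in MCF10A H, in either fraction, where 1.54% of 13124 tested genes were called in T and 1.49% in P. At an unadjusted edgeR p under 0.05 there were 5 members in each fraction, and DESeq2 called 3 in each. The HPP calls held under all 11 alternatives tried for each fraction. The H calls did not: that in P was lost with only the compared libraries in the fit (edgeR adjusted p = 0.108), and both were lost without either N library or without the second H library (edgeR adjusted p = 0.0924 to 0.18 in T and 0.096 to 0.153 in P).

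In MDA-MB-231 PTGS1 stayed low. It was at 2.26 and 2.44 CPM in N T, 2.85 and 4.01 in H T, and 3.77 and 4.34 in HPP T, with 2.18 and 4.16 in N P, 4.38 and 3.5 in H P, and 4.97 and 5.03 in HPP P. The HPP libraries lay above the N libraries, by margins small beside those in MCF10A, and the change was not called (T 0.79 ± 0.28, edgeR adjusted p = 0.0777; P 0.64 ± 0.27, edgeR adjusted p = 0.105). It was called in T with a replicate block and with no filter on low counts, and in P with no filter and without the second N P library (lowest edgeR adjusted p = 0.0255 in T and 0.0157 in P). The response to HPP differed between lines by -2.28 ± 0.57 log2 units in T (edgeR adjusted p = 0.0285) and -2.44 ± 0.56 in P (edgeR adjusted p = 0.017), where a negative value is a smaller rise in MDA-MB-231; these come from a joint fit of both lines and are not exact differences of the values fitted per line. PTGS1 was the only member called in these tests of a line difference, in which 3.31% of 14298 genes were called in T and 3.60% in P. Leaving out single libraries removed the call in 7 of 8 cases in T and 5 of 8 in P. For H alone the line difference was not called (T -2.31 ± 0.57, edgeR adjusted p = 0.119; P -2.45 ± 0.57, edgeR adjusted p = 0.0751), though DESeq2 and a replicate block called it in both fractions, and in P it was also called with no filter, without the first MCF10A H P library and without the second MCF10A NPP T library. None of the 10 genes was called for a line difference under H, with a background of 0.266% in T and 0.329% in P, or under NPP, with 0.0560% in T and 0.126% in P. At an unadjusted edgeR p under 0.05 there were 3 members in each fraction for H, and 2 in T and 1 in P for NPP, and DESeq2 called 1 in each fraction for H and 0 for NPP.

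PTGS2 was far more abundant in MDA-MB-231 than in MCF10A, and its clearest treatment response was in MCF10A polysomes. In MCF10A T it was at 2.74 and 1.64 CPM in N, 6.77 and 4.45 in H, 2.12 and 0.502 in NPP, and 7.14 and 3.86 in HPP. In MCF10A P it was at 1.01 and 1.16 CPM in N, 3.45 and 3.96 in H, 2.04 and 1.40 in NPP, and 6.14 and 7.26 in HPP. The P groups did not overlap one another and ran in the order N, NPP, H, HPP, with tight replicates. In T the hypoxic libraries exceeded the normoxic ones, H and HPP overlapped, and the stray 0.502 CPM came from 12 counts in the second NPP library. Polysomal PTGS2 rose 6.13-fold in HPP (log2FC 2.62 ± 0.57, edgeR adjusted p = 0.00754). The other MCF10A changes were not called: H T 1.36 ± 0.54 (edgeR adjusted p = 0.354), H P 1.76 ± 0.56 (edgeR adjusted p = 0.178), HPP T 1.33 ± 0.54 (edgeR adjusted p = 0.123), NPP T -0.70 ± 0.55 (edgeR adjusted p = 0.754; -2.12 to -0.05 without single libraries) and NPP P 0.66 ± 0.55 (edgeR adjusted p = 0.698). The HPP P call was lost without the first N P library (2.59, edgeR adjusted p = 0.0531). When the second NPP T library was left out of the fit, HPP T (edgeR adjusted p = 0.024) and H P (edgeR adjusted p = 0.0298) were called as well, and DESeq2 also called both (DESeq2 adjusted p = 0.0454 and 0.0298).

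**Figure D1:**
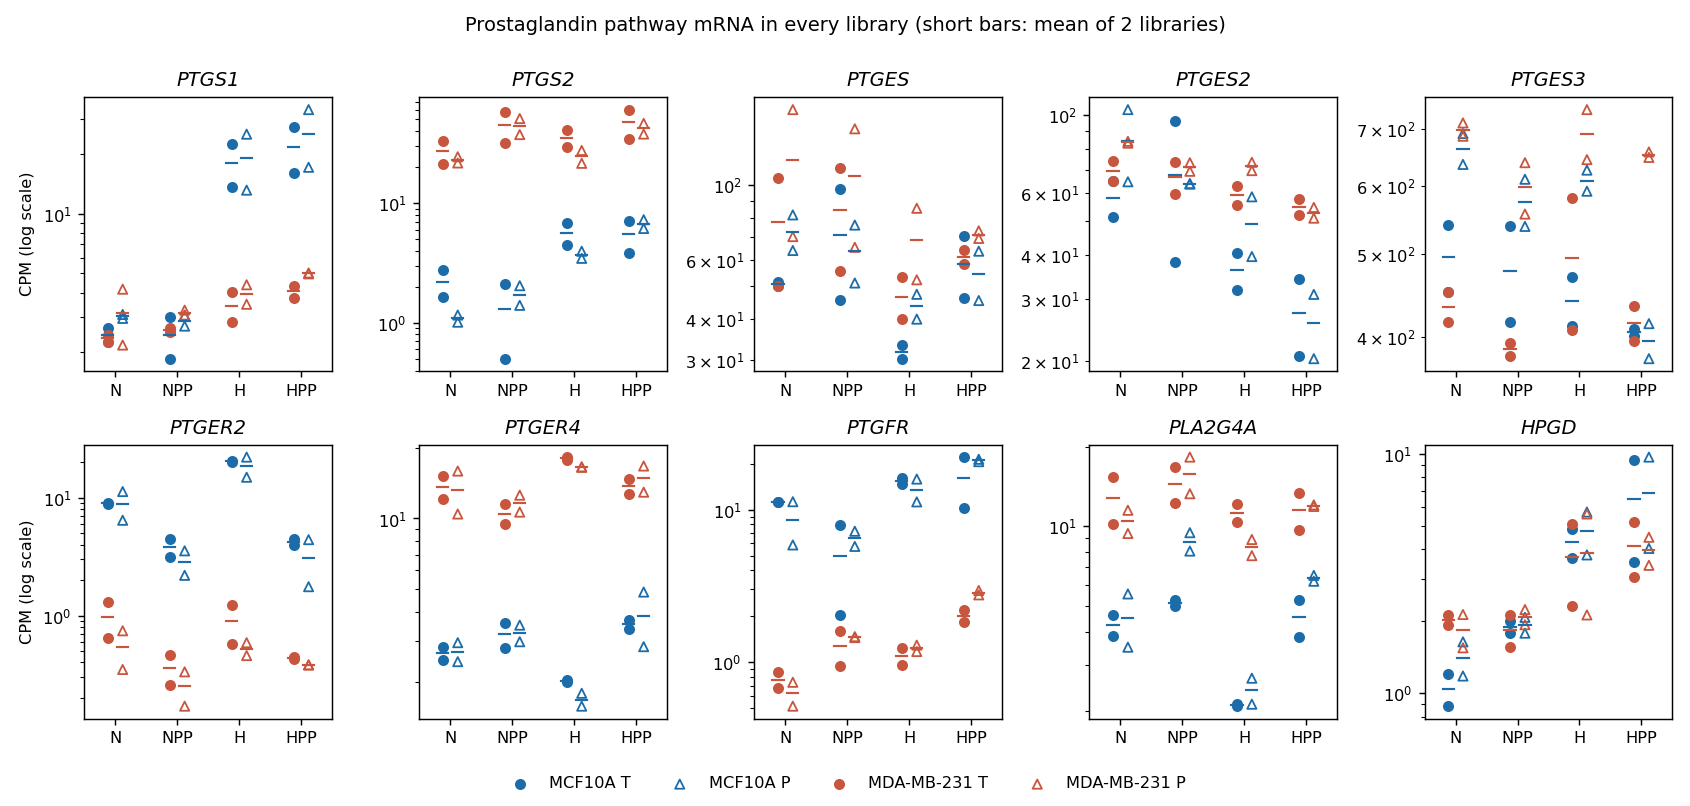
CPM of each of the 10 genes (log scale) in N, NPP, H and HPP, with filled circles for T, open triangles for P, blue for MCF10A, orange for MDA-MB-231 and short bars for the mean of 2 libraries. PTGS1 in MCF10A is at 13.1 CPM or more in every hypoxic library and at 3.11 CPM or less in every normoxic one, and PTGS2 in MDA-MB-231 lies above all MCF10A libraries.

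In MDA-MB-231 T, PTGS2 was at 33.0 and 21.4 CPM in N, 40.7 and 29.4 in H, 57.5 and 32 in NPP, and 60.3 and 33.9 in HPP. In MDA-MB-231 P it was at 24.3 and 21.6 CPM in N, 27.5 and 21.5 in H, 50.7 and 37.3 in NPP, and 46.3 and 37.7 in HPP. In P both PP242 groups lay above both groups without the drug, while H overlapped N. In T the first replicate was the higher in every pair, and HPP lay just above N while the other groups overlapped. None of the changes against N was called; those with PP242 were 0.71 ± 0.31 in NPP T (edgeR adjusted p = 0.446), 0.94 ± 0.31 in NPP P (edgeR adjusted p = 0.18), 0.79 ± 0.31 in HPP T (edgeR adjusted p = 0.111) and 0.87 ± 0.31 in HPP P (edgeR adjusted p = 0.0656). That of H was 0.37 ± 0.31 in T (edgeR adjusted p = 0.707) and 0.09 ± 0.32 in P (edgeR adjusted p = 0.92). HPP against H in P, the test of PP242 within hypoxia, gave 0.78 ± 0.31 (edgeR adjusted p = 0.127), called with no filter (0.00162), a replicate block (0.00521) or only the compared libraries (0.023). Against N, HPP P was called by DESeq2 (DESeq2 adjusted p = 0.035) and by edgeR with no filter on low counts, with a replicate block or with only the compared libraries (edgeR adjusted p = 0.000122 to 0.00835). The replicate block also called HPP T (0.78, edgeR adjusted p = 0.00583) and NPP P (0.91, edgeR adjusted p = 0.00564), and having no filter called these (0.00096 and 0.000331) and NPP T (0.0193). The line difference in response to HPP was -0.44 ± 0.62 in T (edgeR adjusted p = 0.847) and -1.77 ± 0.64 in P (edgeR adjusted p = 0.143), the latter called with a replicate block (edgeR adjusted p = 0.0471) and with the second MCF10A NPP T library left out (edgeR adjusted p = 0.0411).

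Of the terminal synthases, PTGES2 fell in HPP polysomes of both lines, PTGES3 in those of MCF10A, and PTGES was not called. PTGES, the inducible microsomal prostaglandin E synthase (chr9:129738331-129753042), was at 50.0 and 51.5 CPM in MCF10A N T, 30.3 and 33.4 in H T, and 46 and 70.6 in HPP T, and was not called in any treatment. Its MDA-MB-231 replicates were far apart (104.8 and 50.1 CPM in N T, 168 and 70.3 in N P), with standard errors near 0.46, and with no filter on low counts it was called there in H T, H P and HPP P (edgeR adjusted p = 0.0428, 0.0151 and 0.0157). PTGES2, a second membrane-associated synthase (chr9:128120693-128128462), was at 103.8 and 64.7 CPM in MCF10A N P, 58.6 and 39.6 in H P, 63.7 and 63.9 in NPP P, and 30.9 and 20.3 in HPP P. In MDA-MB-231 P it was at 83.3 and 84.3 CPM in N, 69.6 and 73.5 in H, 69.3 and 73.3 in NPP, and 51.0 and 54.7 in HPP. HPP was the lowest P group in both lines with no overlap with N. PTGES2 fell in HPP P in MCF10A (log2FC -1.72 ± 0.44, edgeR adjusted p = 0.0173) and in MDA-MB-231 (-0.67 ± 0.14, edgeR adjusted p = 0.00482). In T the values were -1.09 ± 0.44 (edgeR adjusted p = 0.12) and -0.34 ± 0.14 (edgeR adjusted p = 0.119). For HPP against H in P they were -0.94 ± 0.43 in MCF10A (edgeR adjusted p = 0.244) and -0.44 ± 0.14 in MDA-MB-231 (edgeR adjusted p = 0.0553). The latter was called by DESeq2, with DESeq2's scaling and with a replicate block. The MCF10A call was lost without the first N P or second HPP P library (edgeR adjusted p = 0.155 and 0.151), and the MDA-MB-231 call without the first HPP P library (edgeR adjusted p = 0.0671).

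PTGES3, the cytosolic synthase also known as the HSP90 co-chaperone p23 (chr12:56663341-56688408), had the highest level per kilobase of the 10 in both lines. In MCF10A P it was at 636 and 691 CPM in N, 626 and 592 in H, 538 and 611 in NPP, and 414 and 377 in HPP, with HPP below the rest. It fell in HPP P (log2FC -0.75 ± 0.22, edgeR adjusted p = 0.034), a call lost without any of the 4 compared libraries (edgeR adjusted p = 0.0803 to 0.186), with DESeq2's scaling (0.0529), with no filter on low counts (0.137) and with only the compared libraries (0.235). In MDA-MB-231 P it was at 711 and 686 CPM in N and 648 and 658 in HPP, not called. Counts of 5 PTGES3 pseudogenes, which could share its reads, came to 0.784 to 1.35% of PTGES3 counts, and adding them left the value at -0.75.

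The receptors moved in different directions. PTGER2, the EP2 receptor (chr14:52314305-52328598), was at 9.09 and 8.89 CPM in MCF10A N T, 20.7 and 20.2 in H T, 3.13 and 4.48 in NPP T, and 4.45 and 4.00 in HPP T. In P it was at 11.3 and 6.45 CPM in N, 22.2 and 15.0 in H, 2.20 and 3.55 in NPP, and 4.41 and 1.76 in HPP. In both fractions H was highest, and both PP242 groups lay below N at either oxygen level. PTGER2 fell in HPP P against N (log2FC -1.53 ± 0.44, edgeR adjusted p = 0.0284), while H T (1.19 ± 0.43, edgeR adjusted p = 0.291), H P (1.07 ± 0.43, edgeR adjusted p = 0.317) and NPP P (-1.62 ± 0.44, edgeR adjusted p = 0.112) were not called. With only the compared libraries H T was called (edgeR adjusted p = 0.0161), and DESeq2 called NPP P (DESeq2 adjusted p = 0.00979). Against H, the effect of PP242 within hypoxia was a fall of 4.84-fold in T (-2.28 ± 0.45, edgeR adjusted p = 0.0163) and 6.03-fold in P (-2.59 ± 0.45, edgeR adjusted p = 0.00831). These calls rested on few libraries: HPP P against N was lost without the first N P or second HPP P library (edgeR adjusted p = 0.218 and 0.205), the T comparison with H without any of its 4 libraries (0.0903 to 0.128), and the P comparison with H without the first H P or second HPP P library (0.0525 and 0.0752). With only the compared libraries in the fit all 3 calls were lost (edgeR adjusted p = 0.094, 0.138 and 0.0669). Without single libraries, the log2FC of HPP in P ranged from -3.40 to -2.07 against H and from -2.34 to -1.01 against N. In MDA-MB-231 PTGER2 was at 0.17 to 1.31 CPM, or 6 to 27 counts, and was not called.

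PTGER4, the EP4 receptor (chr5:40679915-40693735), was at 2.44 and 2.95 CPM in MCF10A N P, 1.58 and 1.79 in H P, 2.97 and 3.5 in NPP P, and 2.83 and 4.85 in HPP P. It was not called against N. Against H it rose in HPP P (1.19 ± 0.31, edgeR adjusted p = 0.0438), a call lost without the first or second H P or the second HPP P library (edgeR adjusted p = 0.132 to 0.376), with DESeq2's scaling (0.0505), with no filter (0.0856), with all gene classes (0.0685) and with only the compared libraries (0.187). In MDA-MB-231 PTGER4 ranged from 9.47 to 18.3 CPM and was not called.

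PTGFR, the prostaglandin F receptor (chr1:78303884-78540701), was the member with the firmest response in MDA-MB-231. It was at 0.861 and 0.682 CPM in N T, 1.25 and 0.957 in H T, 1.61 and 0.950 in NPP T, and 2.21 and 1.84 in HPP T. In P it was at 0.740 and 0.517 CPM in N, 1.30 and 1.18 in H, 1.47 and 1.45 in NPP, and 2.95 and 2.76 in HPP, the 4 groups without overlap. These levels rest on 12 to 116 counts. PTGFR rose 2.58-fold in HPP T (log2FC 1.37 ± 0.33, edgeR adjusted p = 0.0138) and 4.59-fold in HPP P (2.20 ± 0.32, edgeR adjusted p = 0.000414), and in P also against H (1.21 ± 0.30, edgeR adjusted p = 0.0175). Its change in NPP P was not called (1.23 ± 0.33, edgeR adjusted p = 0.0828). With a replicate block or with no filter on low counts that change was called (lowest edgeR adjusted p = 0.0323). The HPP P call held in all 10 alternatives. The T call was lost without the first HPP T or second N T library (edgeR adjusted p = 0.0866 and 0.107), and the comparison with H without any of its 4 libraries (0.0648 to 0.122). In MCF10A the NPP T change was -1.15 ± 0.54 (edgeR adjusted p = 0.542), and -2.45 to -0.5 without single libraries. In MCF10A P PTGFR was at 5.87 and 11.3 CPM in N, 11.2 and 15.8 in H, 5.74 and 7.22 in NPP, and 21.3 and 20.6 in HPP. There HPP alone lay above all the others, and the change in HPP P was not called (1.29 ± 0.54, edgeR adjusted p = 0.109). DESeq2 and the edgeR fit without the second NPP T library did call it (lower adjusted p of the edgeR and DESeq2 values = 0.0187), and it was 0.96 to 1.83 without single libraries.

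PLA2G4A, the cytosolic phospholipase that supplies arachidonic acid (chr1:186828949-186988981), starts 148 kb beyond the 5′ end of PTGS2. In MCF10A P it was at 3.49 and 5.55 CPM in N, 2.67 and 2.13 in H, 9.46 and 8.06 in NPP, and 6.52 and 6.2 in HPP. H was lowest and both PP242 groups highest. Against H it rose in HPP P (1.41 ± 0.30, edgeR adjusted p = 0.0177) and was at 1.10 ± 0.29 in T (edgeR adjusted p = 0.063), called by DESeq2 and with DESeq2's scaling. The P call was lost without any of the 4 libraries (edgeR adjusted p = 0.0657 to 0.115) and with only the compared libraries (0.0903). Against N it was not called, with -1.0 ± 0.29 in H T (edgeR adjusted p = 0.157) and 0.95 ± 0.29 in NPP P (edgeR adjusted p = 0.149), though DESeq2 called both (DESeq2 adjusted p = 0.0285 and 0.0262). In MDA-MB-231 P it was at 11.5 and 9.40 CPM in N, 18.3 and 13.3 in NPP, and 12.1 and 11.9 in HPP, not called.

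HPGD, which removes prostaglandins (chr4:174490175-174523154), was higher in hypoxic MCF10A. It was at 1.2 and 0.885 CPM in N T, 4.85 and 3.69 in H T, 1.78 and 2.01 in NPP T, and 3.52 and 9.40 in HPP T. In P it was at 1.64 and 1.18 CPM in N, 5.71 and 3.78 in H, 1.78 and 2.08 in NPP, and 4.03 and 9.67 in HPP. Hypoxic and normoxic libraries did not overlap, and the HPP replicates were more than 2-fold apart. HPGD rose in HPP 6.19-fold in T (log2FC 2.63 ± 0.53, edgeR adjusted p = 0.00692) and 4.88-fold in P (2.29 ± 0.52, edgeR adjusted p = 0.00956). Without the second HPP library the values were 1.76 in T (edgeR adjusted p = 0.0718) and 1.52 in P (edgeR adjusted p = 0.107), and the calls were also lost without the second N library (0.0883 and 0.0647). For H they were 2.03 ± 0.52 in T (edgeR adjusted p = 0.0983) and 1.75 ± 0.51 in P (edgeR adjusted p = 0.142); DESeq2 called both, and edgeR with only the compared libraries called T. In MDA-MB-231 HPGD was at 2.12 and 1.93 CPM in N T, 5.08 and 2.32 in H T, and 5.17 and 3.06 in HPP T, and in P at 2.13 and 1.55 CPM in N, 5.60 and 2.12 in H, and 3.42 and 4.48 in HPP. None of these was called (HPP T 1.02 ± 0.44, edgeR adjusted p = 0.144; HPP P 1.11 ± 0.44, edgeR adjusted p = 0.0887; H P 1.07 ± 0.45, edgeR adjusted p = 0.234). HPP T and P were called with no filter on low counts and with only the compared libraries, HPP P also with a replicate block, and H P with no filter (lowest edgeR adjusted p = 0.00664, 0.00147 and 0.0133). The line difference in the response of HPGD to HPP T was -1.55 ± 0.74 (edgeR adjusted p = 0.322).

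**Figure D2:**
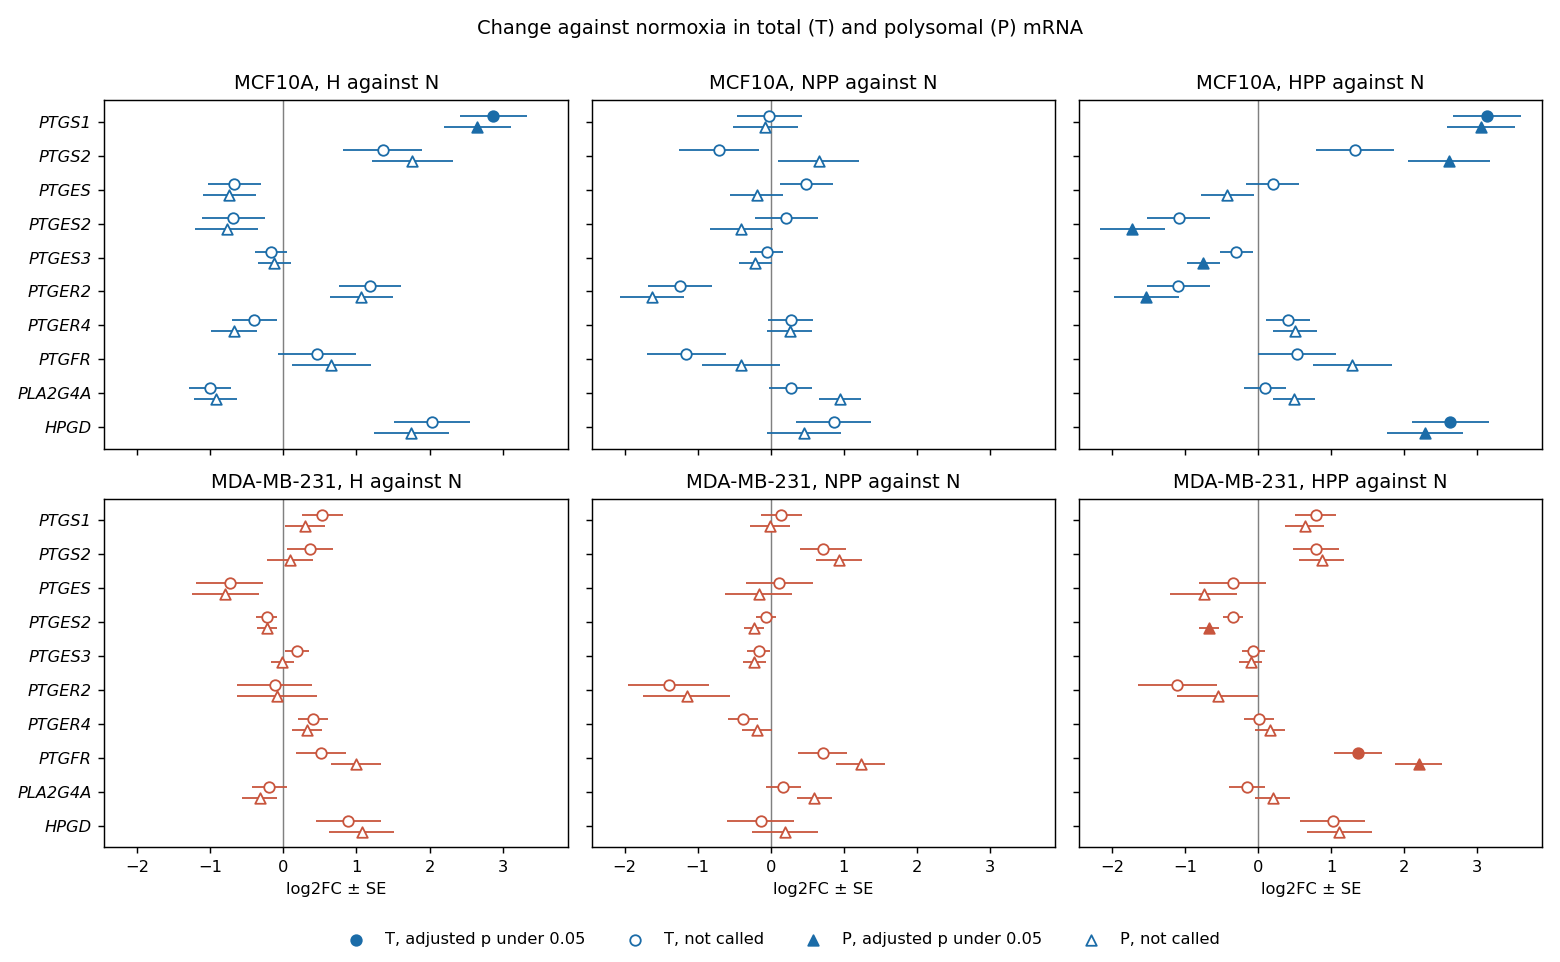
Log2FC against N with its standard error for each gene (rows) in MCF10A (blue) and MDA-MB-231 (orange) under H, NPP and HPP, circles for T and triangles for P, filled where the adjusted p was under 0.05. In MCF10A HPP, PTGS1 and HPGD are filled in both fractions, PTGS2, PTGES2, PTGES3 and PTGER2 in P alone, and in MDA-MB-231 HPP, PTGFR is filled in both and PTGES2 in P.

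Counted over the 10 genes, MCF10A HPP had 2 called in T, where 14.9% of tested genes were called, and 6 in P, 3 higher and 3 lower, where 22.2% were called. The count in P was lower in every fit that left out a single compared library. No member was called in MCF10A NPP, in which 0.648% of genes were called in T and 0.823% in P; the members at an unadjusted edgeR p under 0.05 numbered 1 in T and 2 in P, and DESeq2 called 0 and 2. For HPP against H in MCF10A, 1 member was called in T (background 3.74%) and 3 in P (6.50%). In MDA-MB-231 HPP the counts were 1 of 10 in T (13.2%) and 2 of 10 in P (19.4%), both close to the background share. For HPP against H they were 0 in T (3.78%), with 1 at an unadjusted edgeR p under 0.05 and 0 called by DESeq2, and 1 in P (11.5%). With the filter and design used throughout, no member was called in MDA-MB-231 H (1.27% in T and 2.29% in P) or NPP (0.555% in T and 1.95% in P) by edgeR, nor by DESeq2, but with no filter on low counts edgeR called 1 in T and 2 in P for each of H and NPP, and with a replicate block 2 in NPP P. The members at an unadjusted edgeR p under 0.05 numbered 0 and 2 in H and 2 and 3 in NPP. All 3 treatments share the N libraries as control, so their values for a gene are not independent. The median member log2FC in MCF10A HPP was 0.30 in T and 0.50 in P, beside -0.01 and -0.04 for all genes tested; in MDA-MB-231 HPP it was -0.03 and 0.18, beside -0.05 and 0.01.

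Translational efficiency (Te) was taken as the log2FC in P minus the log2FC in T, tested as an interaction in the edgeR model. Within MCF10A, PTGS2 had the highest Te of the members in each treatment, 1.36 ± 0.78 in NPP (edgeR adjusted p = 0.99), 1.29 ± 0.76 in HPP (edgeR adjusted p = 0.977) and 0.41 ± 0.76 in H (edgeR adjusted p = 1), against 0.23 ± 0.44, 0.08 ± 0.44 and -0.27 ± 0.44 for PTGS2 in MDA-MB-231 (edgeR adjusted p = 1 each). The standard errors are large beside the MCF10A estimates, and the NPP value rests on the T library with 12 PTGS2 counts: it was 0.69 without that library and 2.77 without the other NPP T library, against 0.87 to 1.77 for HPP without single libraries. PTGES2 and PTGES3 in MCF10A HPP were at -0.63 ± 0.61 and -0.45 ± 0.32 (edgeR adjusted p = 0.977 each), and PTGFR in MDA-MB-231 HPP at 0.83 ± 0.46 (edgeR adjusted p = 1). No member was called for Te in either line, and none had an unadjusted edgeR p under 0.05 or was called by DESeq2. The background was 0.00% of genes in MCF10A for H, HPP and NPP alike, where 23, 433 and 296 genes had an unadjusted edgeR p under 0.05, and 0.0148%, 0.696% and 0.340% in MDA-MB-231. Under a z-score rule (absolute z over 1.5 with polysomal adjusted p under 0.05), PTGS2 was called in MCF10A HPP (z = 1.67), as were 341 of 13124 genes, or 2.60%, and no other member was called in any treatment.

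**Figure D3:**
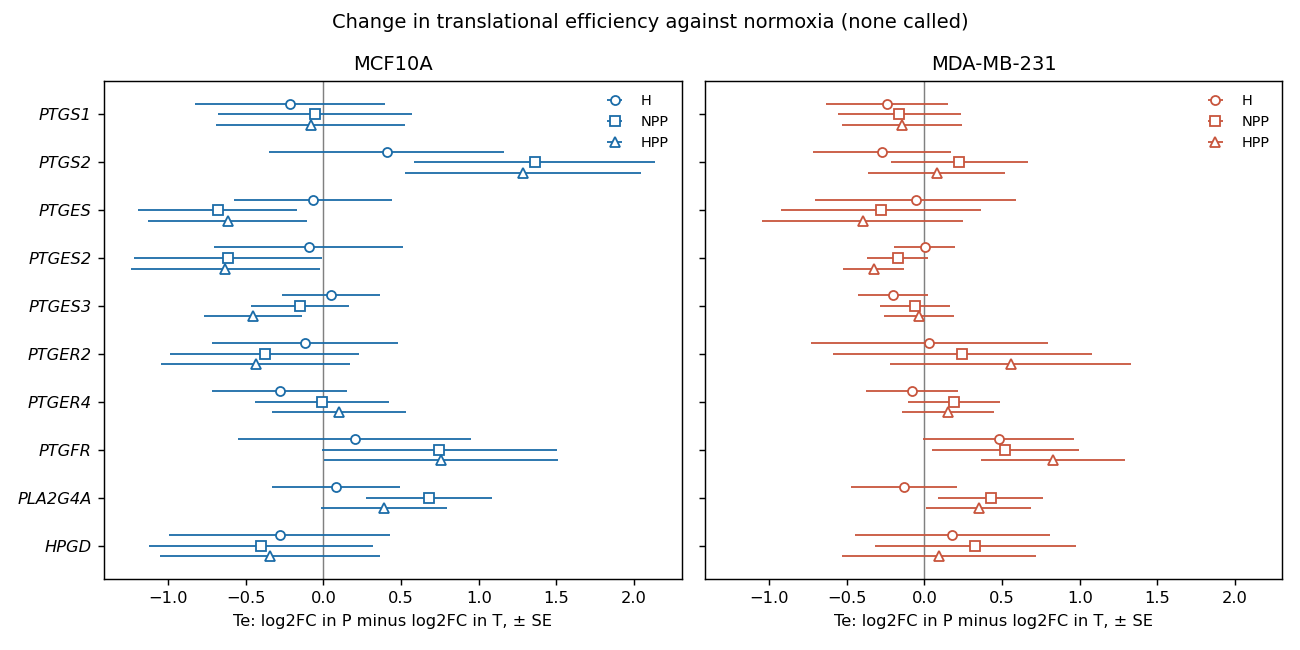
Te, the log2FC in P minus the log2FC in T, with its standard error for each gene in MCF10A (left) and MDA-MB-231 (right), circles for H, squares for NPP and triangles for HPP. PTGS2 in MCF10A has the highest values, 1.36 in NPP and 1.29 in HPP, with wide errors, and no point was called.

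In normoxia the lines differed in both the enzyme and the receptor end of the pathway. On the common scale of both lines, PTGS2 was at 3.22 and 1.94 CPM in MCF10A T and 28.6 and 17.9 in MDA-MB-231 T, and at 1.09 and 1.30 against 21.5 and 19.0 in P. It was 9.05-fold higher in MDA-MB-231 in T (log2 difference 3.18 ± 0.48, edgeR adjusted p = 1.51e-05) and 16.8-fold in P (4.07 ± 0.51, edgeR adjusted p = 1.23e-06). PTGER2 ran the other way, at 10.7 and 10.5 against 0.561 and 1.09 CPM in T, 13.1-fold lower in MDA-MB-231 (-3.71 ± 0.47, edgeR adjusted p = 1.63e-06). PTGFR was at 13.1 and 13.2 against 0.748 and 0.571 CPM in T, 19.6-fold lower (-4.29 ± 0.52, edgeR adjusted p = 8.59e-07). PTGER4 was at 2.91 and 3.34 against 10.6 and 12.7 CPM in T, 3.71-fold higher in MDA-MB-231 (1.89 ± 0.27, edgeR adjusted p = 7.56e-06). Per kilobase of exon, the EP receptor at the higher level in T was PTGER2 in MCF10A (4.30 against 0.882 CPM per kb) and PTGER4 in MDA-MB-231 (3.28 against 0.336). PLA2G4A was 2.19-fold higher in MDA-MB-231 T (1.13 ± 0.27, edgeR adjusted p = 0.00205) and PTGES3 1.58-fold lower (-0.66 ± 0.19, edgeR adjusted p = 0.0071).

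PTGER2, PTGFR, PTGER4 and PLA2G4A were called in P as well, at -4.28 ± 0.49, -4.11 ± 0.52, 1.97 ± 0.27 and 0.88 ± 0.27, and PTGES3 was not (-0.24 ± 0.19, edgeR adjusted p = 0.305). PTGS1, PTGES, PTGES2 and HPGD were not called in T, with PTGS1 at -0.53 ± 0.41 (edgeR adjusted p = 0.331) and HPGD at 0.50 ± 0.54 (edgeR adjusted p = 0.496). In all, 6 of 10 genes were called in T and 5 of 10 in P, beside 40.7% and 45.4% of 14298 genes, so the count itself is close to the background. The calls of PTGS2, PTGER2, PTGER4 and PTGFR held in all 8 alternatives in each fraction. PLA2G4A was lost in T without the first MDA-MB-231 N T library (edgeR adjusted p = 0.0718) and in P without the first N P library of either line, and PTGES3 in T without the second MCF10A N T library (edgeR adjusted p = 0.0877).

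**Figure D4:**
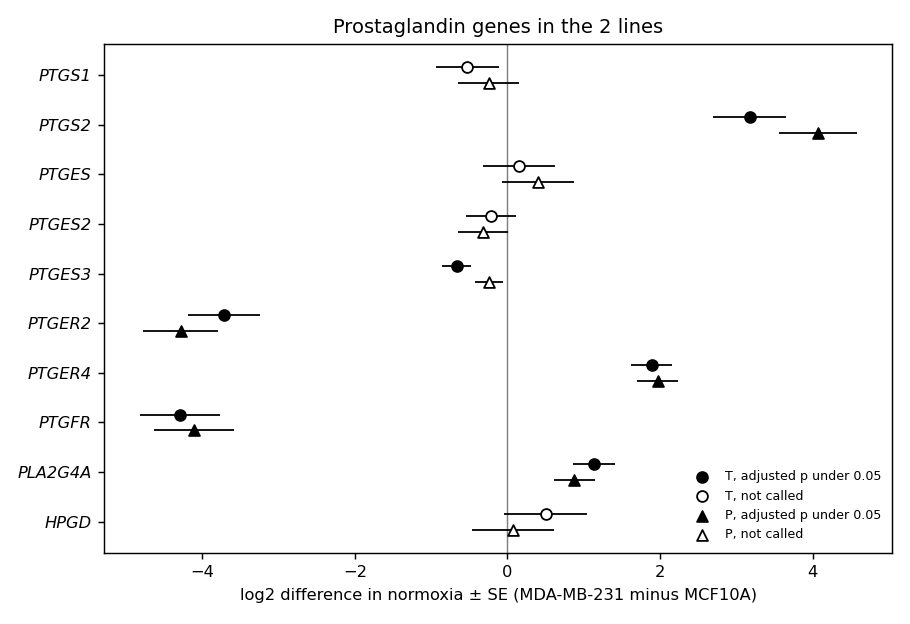
Log2 difference between the lines in normoxia (MDA-MB-231 minus MCF10A) with its standard error for each gene, circles for T and triangles for P, filled where the adjusted p was under 0.05. PTGS2, PTGER4 and PLA2G4A lie to the right in both fractions and PTGER2 and PTGFR to the left, near -4.

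Levels of different genes were set side by side per kilobase of merged exons. That length joins all annotated exons of a gene and need not be that of the transcript expressed, so the order depends on it. PTGES2 has 6084 merged bases and PTGES 1891. Before division by length, the mean in MCF10A N T was 68.5 CPM for PTGES2 and 59.8 for PTGES, with overlapping libraries. In MCF10A N T the order was PTGES3 (172 CPM per kb), PTGES (31.6), PTGES2 (11.3), PTGER2 (4.30), PTGFR (2.28), PLA2G4A (1.73), PTGER4 (0.882), PTGS1 (0.499), PTGS2 (0.471) and HPGD (0.222). PTGS1 and PTGS2 overlapped between libraries, and the other neighbours did not. In MDA-MB-231 N T the order was PTGES3 (108.6 CPM per kb), PTGES (35.1), PTGES2 (9.74), PTGS2 (4.24), PLA2G4A (3.79), PTGER4 (3.28), PTGS1 (0.346), PTGER2 (0.336), HPGD (0.312) and PTGFR (0.114). Here PTGS2, PLA2G4A and PTGER4 overlapped in turn, as did PTGS1, PTGER2 and HPGD. The synthases PTGES3, PTGES and PTGES2 thus led in both lines, and PTGS2 stood above PTGS1 in MDA-MB-231 alone.

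**Figure D5:**
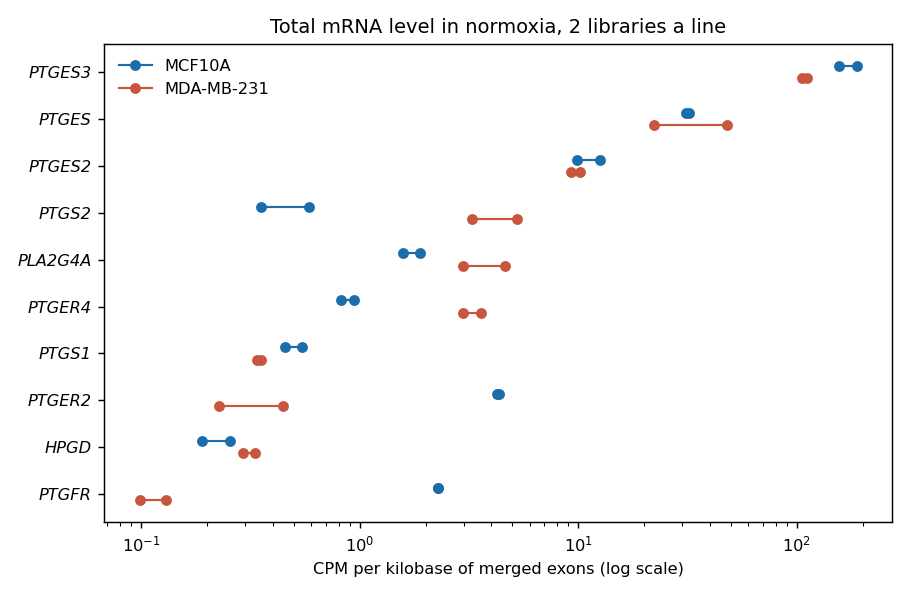
CPM per kilobase of merged exons (log scale) of the 10 genes in normoxic total mRNA; the joined points are the 2 libraries of MCF10A (blue) and of MDA-MB-231 (orange). PTGS2 overlaps PTGS1 in MCF10A and lies above it in MDA-MB-231.

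Of the 11 genes of arachidonate supply beyond PLA2G4A, 7 were tested in each line and 1 was called, in HPP. PLA2G15, a lysosomal phospholipase, was at 25.6 and 25.8 CPM in MCF10A N P and 62.9 and 65.2 in HPP P, and at 20.1 and 23.5 against 42.2 and 40.4 in MDA-MB-231. It rose in both lines and both fractions, by 1.32 ± 0.29 log2 units in MCF10A P (edgeR adjusted p = 0.00751) and 0.92 ± 0.16 in MDA-MB-231 P (edgeR adjusted p = 0.00151). The MDA-MB-231 calls held without any single library, the MCF10A P call was lost without the first N P library, and the MCF10A T call was lost in 3 of 4 such cases. The list median was 0.61 for MCF10A HPP P and 0.56 for the same group of MDA-MB-231, beside -0.04 and 0.01 for all genes. With 14.9% of all genes called in T and 22.2% in P for MCF10A HPP, and 13.2% and 19.4% for MDA-MB-231, 1 of 7 is at about the background share.

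Other prostanoid receptors and synthases were called in MCF10A HPP, where 14.9% of all genes were called in T and 22.2% in P. None of those tested was called in MDA-MB-231, where the HPP shares were 13.2% in T and 19.4% in P. No test of a line difference is reported for these genes. Of 6 other receptors, 2 were tested in each line and both rose in MCF10A. PTGIR, the prostacyclin receptor, was not detectable at this depth (under 10 counts in every library) in MDA-MB-231. In MCF10A it was at 0.0698 and 0.14 CPM in N P and 0.944 and 1.89 in HPP P (log2FC 3.65 ± 0.51, edgeR adjusted p = 0.000747). Both of these N P libraries also held under 10 counts of PTGIR, so the size of this rise is uncertain. TBXA2R, the thromboxane receptor, went from 1.19 and 0.701 to 3.25 and 3.34 CPM in P (1.82 ± 0.42, edgeR adjusted p = 0.0105), a call lost without the second N P or second HPP P library. Of 5 tested synthases, AKR1B1 and AKR1C3, aldo-keto reductases that can make prostaglandin F, rose in MCF10A HPP T (3.37 ± 0.85, edgeR adjusted p = 0.0215, and 1.83 ± 0.52, edgeR adjusted p = 0.0343), in P AKR1B1 rose and FAM213B, another prostaglandin F synthase, fell (-0.98 ± 0.28, edgeR adjusted p = 0.0263), and each call was lost in 3 of 4 cases when a library was left out. The AKR1B1 replicates in HPP T stood at 749 and 4732 CPM. Of the 4 transport and reduction genes, all were tested in MCF10A and 3 in MDA-MB-231, and none tested was called in any treatment by edgeR or DESeq2. In H and NPP, 0.555% to 2.29% of all genes were called over both lines and fractions. At an unadjusted edgeR p under 0.05 there were PTGR1 and ABCC4, each in 1 comparison. PTGIS, HPGDS, PTGER1, PTGDR and PTGDR2 were not detectable at this depth in either line.

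In the competing lipoxygenase arm, 2 of 7 genes were tested in MDA-MB-231 and neither was called. The shares of all genes called there were 1.27% (T) and 2.29% (P) in H, and 13.2% and 19.4% in HPP. No test of a line difference is reported for this arm. In MCF10A 5 were tested, and calls were made beside 1.54% (T) and 1.49% (P) of all genes in H and 14.9% and 22.2% in HPP. ALOX15B, an arachidonate lipoxygenase, was at 7.57 and 7.99 CPM in N T, 63.0 and 88.0 in H T, and 97.5 and 140 in HPP T, and at 3 counts or fewer in MDA-MB-231. It rose in H (T 3.28 ± 0.39, edgeR adjusted p = 0.00129) and HPP (T 3.93 ± 0.40, edgeR adjusted p = 0.00019), with like values in P, and each call held without any single library. LTA4H, a leukotriene hydrolase, also rose in HPP T (0.96 ± 0.29, edgeR adjusted p = 0.0437), a call lost in 3 of 4 such cases.

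Several genes that respond to cAMP, the messenger of EP2 and EP4, rose in MCF10A with PP242. In HPP P 5 of 8 tested rose and none fell, with a list median of 1.89 beside -0.04 for all genes; in HPP T 2 rose, in NPP P 2 rose, and in MDA-MB-231 HPP P 1 of 9 rose. Of all genes tested, 22.2%, 14.9%, 0.823% and 19.4% were called in these comparisons, in either direction. The list medians in MDA-MB-231 were also above those of all genes. They were 0.284 in HPP T, 0.535 in HPP P, 0.511 in NPP T and 0.579 in NPP P. Those of all genes were -0.05, 0.01, -0.01 and -0.0007. No test of a line difference is reported for this list. AREG, an EGF receptor ligand, was at 302 and 289 CPM in MCF10A N P, 301 and 180 in H P, 1122 and 1135 in NPP P, and 2077 and 2107 in HPP P (HPP log2FC 2.82 ± 0.32, edgeR adjusted p = 0.000264), but at 29.2 to 55.6 CPM in MDA-MB-231 P without a call. NR4A1, a nuclear receptor, went from 2.17 and 2.28 CPM in MCF10A N P to 12.2 and 62.4 in HPP P (4.07 ± 0.79, edgeR adjusted p = 0.00451), and NR4A2 rose in NPP P (3.08 ± 0.57, edgeR adjusted p = 0.0291) and HPP P (2.67 ± 0.56, edgeR adjusted p = 0.00675). The HPP P calls of AREG and NR4A1 in MCF10A held without any single library, that of NR4A2 was lost without the first N P or second HPP P library, and the NPP calls were lost without any of the 4 libraries. PTGER2 was low in the same groups, and PTGER4 was not called against N in them; the medium held cholera toxin throughout. Whether these are linked was not tested.

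Of the proteins that act on PTGS2 itself, 7 transcription factors and 9 AU-rich element binding proteins were tested in both lines. Among the former JUN rose in MCF10A H (P 2.08 ± 0.29, edgeR adjusted p = 0.00334) and FOS in HPP (P 1.76 ± 0.48, edgeR adjusted p = 0.0216), and NFKB1 fell in MDA-MB-231 HPP T (-0.46 ± 0.14, edgeR adjusted p = 0.0397); all of these were lost without 1 or more libraries. Among the latter 2 rose and 2 fell in each fraction of MCF10A HPP, and in MDA-MB-231 HPP 1 rose with 2 falling in T and 3 in P. Of all genes tested, 14.9% (T) and 22.2% (P) were called for MCF10A HPP, and 13.2% (T) and 19.4% (P) for MDA-MB-231 HPP. ELAVL1, which stabilises such mRNAs, was at 197 and 155 CPM in MCF10A N P and 72.0 and 64.0 in HPP P, and at 225 and 247 against 164 and 160 in MDA-MB-231. It fell in both lines (P -1.37 ± 0.23, edgeR adjusted p = 0.0019, and -0.55 ± 0.12, edgeR adjusted p = 0.00762). ZFP36, which promotes their decay, rose in HPP in both lines (T 1.37 ± 0.30, edgeR adjusted p = 0.0107, and 0.95 ± 0.20, edgeR adjusted p = 0.00754). ZFP36L2, a relative of ZFP36, rose in MCF10A NPP P (1.35 ± 0.24, edgeR adjusted p = 0.0291), as the one gene of its list called there beside 0.823% of all genes, and in HPP P (1.14 ± 0.24, edgeR adjusted p = 0.0071), and fell in MDA-MB-231 HPP P (-0.64 ± 0.19, edgeR adjusted p = 0.0324). Only the MCF10A P call of ELAVL1 held without any single library among these.

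Over the 16 libraries of MCF10A, genes whose log2 CPM was among the most like that of PTGS2 were TBC1D8B (Pearson r = 0.963), SAMD9L (0.960), SLC5A3 (0.954) and HK2 (0.950). Over those of MDA-MB-231 they were ACSL3 (0.935), DDX58 (0.931), SLC38A2 (0.928), LMO7 (0.926) and SMARCA2 (0.915). Among the members PTGFR correlated with PTGS2 at 0.885 in MCF10A and 0.725 in MDA-MB-231, and PTGES2 at -0.909 and -0.730. These values describe 8 groups of 2 libraries that share treatments and depth. Reads of PTGS2 could include those of the antisense RNA PACERR, which shares 219 exon bases with it and had 0 to 30 counts; HPGD shares 314 exon bases with an opposite gene, and the strand of the libraries is not stated.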

How the data were processed

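RNA-Seq libraries (TruSeq, poly(A) selected) were made from total and polysomal mRNA of both lines. The authors aligned reads with STAR and counted genes with RSEM; the deposited values are the estimated counts per gene that the authors made with RSEM, in whole numbers, without normalization. The labels' processing notes name GRCh37 and the study's methods GRCh38; coordinates here are GRCh38 annotation matched by gene identifier, and strand is not given in the sources used here. Depth was 18340916 to 46032327 counts per library.

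Counts were TMM-scaled and fitted with edgeR 4.0.16 (limma 3.58.1, R 4.3.3; quasi-likelihood, filterByExpr), per line for treatments (13124 and 13510 genes; 8 residual degrees of freedom) and jointly for lines (14298 genes; 16). Members enter with 2 replicates per group. An exact permutation test of 2 against 2 cannot go below p = 0.333, so p-values rest on the model's shared spread. DESeq2 1.42.0, other scaling, no filter, a replicate block, only the compared libraries and each library left out were alternatives. Log2 CPM used a prior count of 2.

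All 10 genes are named; of other lists, called genes are named, at most 3 per list by size of change. Members and lists were chosen with earlier results of these data known. The genes most like PTGS2 are not all reported here.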

Additional observations from a re-analysis of the deposited data

Results flagged for a closer look

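The response of PTGS1 to hypoxia with PP242 differed between the lines in the test of the difference itself, an interaction term fitted over all 32 libraries. The difference (MDA-MB-231 minus MCF10A) was -2.28 log2 units in total mRNA (edgeR adjusted p = 0.0285) and -2.44 in polysomal mRNA (edgeR adjusted p = 0.017). Fitted separately per line, the values were 3.14 for MCF10A against 0.79 for MDA-MB-231 in total mRNA, and 3.06 against 0.64 in polysomal mRNA. Leaving out single libraries removed the call in 7 of 8 cases in total and 5 of 8 in polysomal mRNA. Both MCF10A libraries lay above both MDA-MB-231 libraries under HPP in each fraction. Line, medium and sequencing set cannot be told apart.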

How the results depend on the processing

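Calls of PTGS1 in MCF10A HPP, of polysomal PTGFR in MDA-MB-231 HPP and of the normoxic line differences of PTGS2, PTGER2, PTGER4 and PTGFR kept their side of the threshold under every alternative run for them. Of 637 single-gene fold changes under other settings than a left-out library, 578 kept direction and side, 39 lost and 18 gained a call and 2 reversed. With 2 replicates a group and few counts for PTGS2 in MCF10A (12 to 322) and PTGER2 in MDA-MB-231 (6 to 27), many calls rest on single libraries. Where a count moved, the cause was not tested.

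Counts of the 10 genes called moved beyond 1.5 times as follows. In MCF10A, 1 in H T became 3 by DESeq2 and 3 with only the compared libraries, and 1 in H P became 3, 0 and, in a fit chosen after seeing the data that lacks the second NPP T library, 2. In NPP P, 0 became 2 by DESeq2. For HPP against H, 1 in T became 2 by DESeq2, 2 by DESeq2's scaling (RLE) and 0 with only the compared libraries, and 3 in P became 0 with those. For Te in HPP, 0 became 1 by the z-score rule. In MDA-MB-231 with no filter on low counts, H T went from 0 to 1, H P from 0 to 2, HPP T from 1 to 4, HPP P from 2 to 6, NPP T from 0 to 1, NPP P from 0 to 2 and HPP against H in P from 1 to 2. With only the compared libraries, HPP T went to 2, HPP P to 4 and HPP against H in P to 2, the last also 2 by DESeq2 and by RLE. For the difference between lines, H T went from 0 to 1 by DESeq2, H P from 0 to 1 by DESeq2, with no filter and without the second NPP T library, and HPP P from 1 to 2 without that library.

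With a replicate block, HPP T in MDA-MB-231 had 3 called, HPP P 4, NPP P 2 and HPP against H in P 3, and the difference between lines 1 in H T, 1 in H P and 2 in HPP P; no other count of members moved beyond 1.5 times. Same-numbered libraries deviated together in 11 of 28 pairs of groups in MCF10A (r above 0.1; range -0.641 to 0.778) and 19 of 28 in MDA-MB-231 (-0.187 to 0.348), including 6 of 6 between T groups of MCF10A (0.283 to 0.778). As not every pair was above 0.1, the block stayed an alternative, but that rule is no test of pairing. The labels do not say that replicate numbers pair treatments. Whether PTGS2 was called in MDA-MB-231 HPP T, HPP P and NPP P depends on this choice. The titles share a number between T and P of a group, and a replicate block by that number changed no count of Te calls among the members.

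Without single libraries, the counts ranged in MCF10A from 0 to 1 in H T, 1 to 2 in HPP T, 0 to 1 in NPP T, 0 to 1 in H P, 2 to 5 in HPP P, 0 to 0 in HPP against H in T and 0 to 2 in P; in MDA-MB-231 from 0 to 1 in HPP T, 1 to 3 in HPP P and 0 to 0 in HPP against H in P; and for the line difference from 0 to 1 in HPP T, 0 to 2 in NPP T, 0 to 1 in H P and 0 to 1 in HPP P. Uncalled PTGS2 values changed sign: HPP against H in MCF10A T from -0.03 to 0.0197 by DESeq2 and by RLE, and from -0.50 to 0.30 without single libraries; without single libraries also Te of H in MCF10A (-0.006 to 0.74), H P (-0.0894 to 0.27), HPP against H in T (-0.0216 to 0.82) and Te of H (-0.63 to 0.0087), HPP (-0.30 to 0.54) and NPP (-0.17 to 0.73) in MDA-MB-231, and the line difference of HPP T (-0.91 to 0.0104).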
